A study of Mus musculus with 2 samples.

Results

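The 6 microRNA genes that lie inside the mouse Hox clusters, Mir10a, Mir10b, Mir615, Mir196b, Mir196a-1 and Mir196a-2, were followed in the hindbrain of newborn mice. They are a named set, defined by their place in the clusters, and all 6 of them have a row among the 1973 microRNA genes of the count tables. The study profiled small RNAs (labelled size below 30 nt) from total RNA of the hindbrain at postnatal day 0. There was 1 group of 2 libraries from B6NCrl mice with no treatment in the labels, each made from a single hindbrain, here called pup 1 and pup 3 as labelled. The labels give both pups the same donor identifier and no sex. With no second tissue, stage or treatment, the data give the level of each gene and the difference between the pups.

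Hox genes encode homeodomain transcription factors that specify position along the head-to-tail axis. Within a cluster their order on the chromosome follows the order in which they are expressed along that axis, low-numbered genes reaching into the hindbrain and high-numbered genes being kept to the trunk and tail. MicroRNAs are short RNAs that are cut from hairpin precursors and that repress messenger RNAs that pair with their seed, the bases after the first at the 5′ end. The miR-10 and miR-196 families sit at fixed places in the clusters and are known to repress Hox messenger RNAs, miR-196 by directing the cleavage of the Hoxb8 transcript.

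The mature forms are shown first, because a change of a single base separates the members of each family and because identical sequence decides which member can be counted. Sequences are those of RefSeq (GRCm38.p6), written 5′ to 3′ with the seed, bases 2 to 8, in capitals. All 6 genes matched a mature entry.
miR-10a-5p: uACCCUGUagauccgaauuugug
miR-10b-5p: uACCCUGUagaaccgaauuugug
miR-196a-5p: uAGGUAGUuucauguuguuggg
miR-196b-5p: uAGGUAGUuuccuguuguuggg
miR-615-3p: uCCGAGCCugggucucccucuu
miR-615-5p: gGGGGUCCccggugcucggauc
Counted from 1 at the 5′ end, miR-10a-5p and miR-10b-5p differed by U12A over 23 nt, and miR-196a-5p and miR-196b-5p by A12C over 22 nt. Both differences fall at position 12, outside the seed, so each family has 1 seed. In the RefSeq set the seed ACCCUGU was held by mature forms of 2 genes, Mir10a and Mir10b, and AGGUAGU by 3, Mir196a-1, Mir196a-2 and Mir196b. The seeds of both miR-615 arms were held by Mir615 alone.

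Positions are those of GENCODE M21 (mm10), and the members are named from the low-numbered to the high-numbered end of the clusters. Mir10a (ENSMUSG00000065519.1, chr11:96317165-96317274, plus strand) lay between Hoxb4 and Hoxb5, in no annotated transcript but its own, 992 bp from the Hoxb4 gene. Mir10b (ENSMUSG00000065500.2, chr2:74726070-74726137, plus strand) held the matching place in the Hoxd cluster, between the 3′ ends of Hoxd4 and Hoxd8 and within introns of Hoxd3 and Hoxd4. Mir615 (ENSMUSG00000076010.1, chr15:103014910-103015001, plus strand) lay in an intron of Hoxc5. The miR-196 genes sat beyond the Hox9 paralogs. Mir196b (ENSMUSG00000065443.1, chr6:52230081-52230165, minus strand) was followed by Hoxa10 after 1031 bp and fell in exons of 2 non-coding Hoxa9 transcripts and in an intron of another. Mir196a-1 (ENSMUSG00000065546.1, chr11:96265164-96265265, plus strand) lay between Hoxb9 and Hoxb13 in no other transcript. Mir196a-2 (ENSMUSG00000065488.1, chr15:102973350-102973434, plus strand) lay between the 3′ ends of Hoxc9 and Hoxc10, inside an intron of a long non-coding Hoxc5 transcript. All 6 were on the strand of the Hox genes around them, as the map of the clusters shows.

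**Figure D1:**
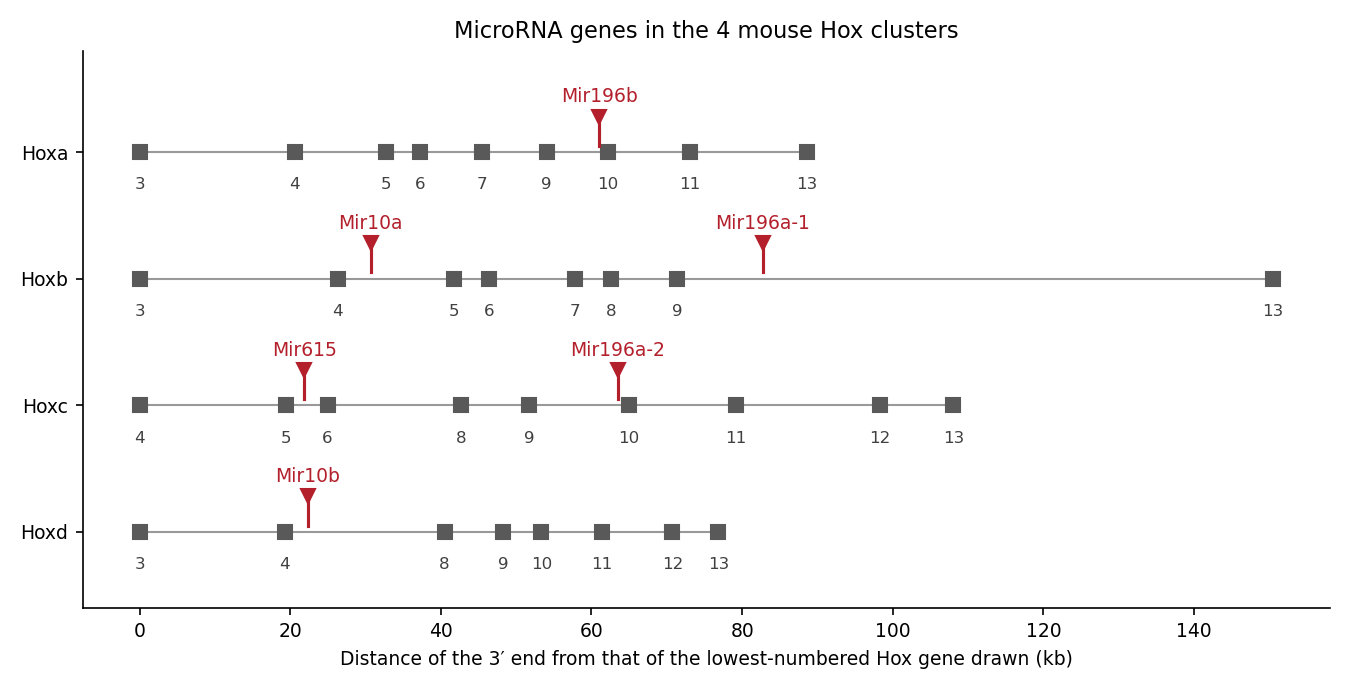
Map of the Hoxa, Hoxb, Hoxc and Hoxd clusters drawn to scale, with the 3′ ends of the Hox genes numbered 3 and above as squares and each microRNA gene as a red triangle. The x axis is the distance in kb from the 3′ end of the lowest-numbered Hox gene drawn. Mir10a and Mir10b follow Hoxb4 and Hoxd4, and the Mir196 genes follow Hoxa9, Hoxb9 and Hoxc9.

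Reads assigned to microRNA genes in the sense direction numbered 2459757 for pup 1 and 3012320 for pup 3, and levels are given as counts per 1000000 of these reads (CPM). Of all reads, 40.2% and 42.0% mapped to several loci and belong to no gene in the tables. Across genes the libraries showed neuronal microRNAs (10 of 13 listed genes at 10 CPM or more in both pups, 26402 and 29909 CPM summed). Those below were Mir124a-1, Mir124a-2 and Mir124a-3, at no more than 5.64 CPM in either pup. Such counts cannot be read as low levels where reads map to several loci, since those reads are left out. Mir122, of liver, was listed as a gene that should be absent, and it had 41.9 and 45.5 CPM.

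The 5 members with counts spanned about 4 orders of magnitude on the CPM scale. The Mir10 genes beside the Hox4 paralogs were high, Mir615 intermediate, Mir196b low and Mir196a-2 near the limit of detection. The low end of that span is Mir196a-2, whose count leaves out reads of miR-196a-5p, since they map to several loci. Down to Mir196b the span was 2043-fold in pup 1 and 1689-fold in pup 3. Together the members held 5.71% of counts in pup 1 (exact 95% Clopper-Pearson interval 5.68% to 5.74%) and 3.43% in pup 3 (3.41% to 3.45%). The mean was 4.57% ± 1.62 (SD, n = 2). Mir10a and Mir10b made up 99.0% of that share in pup 1 and 98.4% in pup 3. These intervals cover counting error only, since each is taken within 1 library and holds no spread between pups. Levels were not divided by length, because the mature forms are of 22 or 23 nt and each molecule gives 1 read.

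Mir10a had 87854 counts in pup 1 and 70922 in pup 3, corresponding to 35717 and 23544 CPM. By count it was gene 4 in pup 1 and gene 9 in pup 3, at 29630 ± 8607 CPM (SD, n = 2). By mean level Mir335 stood just above it and Mir100 just below it, and their ranges over the pups (31662 to 33974 CPM and 26436 to 28271 CPM) lay inside that of Mir10a. Mir10a was thus not separated from its neighbours in the ranking. Ranks here and below are by counts that leave out reads mapping to several loci. Genes whose mature forms are encoded at several loci can therefore rank too low.

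Mir10b had 51306 counts in pup 1 and 30713 in pup 3, corresponding to 20858 and 10196 CPM, a mean of 15527 ± 7539 CPM. It was gene 11 in pup 1 and gene 23 in pup 3. Its neighbours by mean level, Mir149 (15600 to 17477 CPM) and Mir99b (14054 to 15097 CPM), also lay within its range. Mir10a exceeded Mir10b in both pups, and the highest Mir10b value was below the lowest Mir10a value. Because the Mir10 hairpins share at most 15 nt in a row, fewer than the mature forms are long, a full-length read of one does not match the other without a mismatch.

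Mir615 had 1308 and 1579 counts, or 532 and 524 CPM, a mean of 528 ± 5.36 CPM (SD, n = 2), at rank 133 of all genes by its mean. Mir615 was the closest of the members between the pups, and it lay apart from the Mir10 genes: Mir10b exceeded it 39.2-fold in pup 1 and 19.5-fold in pup 3. The ranges of Mir700 (524 to 540 CPM) and Mir455 (477 to 566 CPM), its neighbours by level, overlapped with it. The tables count whole precursors, so the share of its 2 arms is not known.

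Mir196b had 43 counts in pup 1 and 42 in pup 3. That is 17.5 CPM (exact interval 12.7 to 23.5) and 13.9 CPM (10.05 to 18.8), so the pups' counting intervals overlapped. Mir10b exceeded it 1193-fold and 731-fold, and Mir615 lay above it in both pups. Mir1968 (14.3 to 18.3 CPM) and Mir6236 (14.3 to 16.7 CPM), on either side of it in the ranking, could not be told apart from it by level. Mir122, listed as a gene that should be absent, stood above Mir196b at 41.9 and 45.5 CPM. Whether the Mir196b counts come from hindbrain cells was not tested.

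Mir196a-2 had 6 and 10 counts, which are 2.44 CPM (exact interval 0.895 to 5.31) and 3.32 CPM (1.59 to 6.11). Mir196a-1 had no count in either library, for which the exact interval reaches up to 1.5 CPM in pup 1 and 1.22 CPM in pup 3 (3 counts, the limit drawn in the plot of levels, are 1.22 and 0.996 CPM). These values bear on the loci and not on the mature microRNA, because the hairpins of Mir196a-1 and Mir196a-2 share exactly the 22 nt of miR-196a-5p and the bases on both sides of it differ. A read of exactly that form maps to both loci, and such reads are left out of the gene counts. Their other arms differ and are shown because a read of either maps to 1 hairpin.
miR-196a-1-3p: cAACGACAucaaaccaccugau
miR-196a-2-3p: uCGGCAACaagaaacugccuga
The level of miR-196a-5p therefore could not be measured here. Mir196b, whose mature form was held by 1 hairpin, is the only member of the miR-196 family with its main arm countable, and it was low in both pups.

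**Figure D2:**
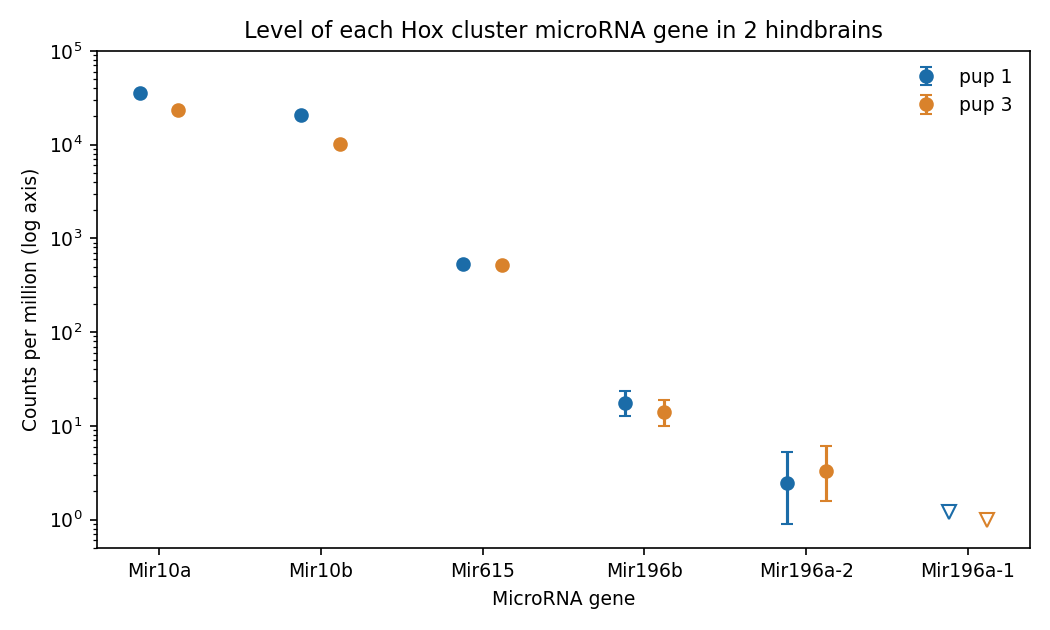
Level of each Hox cluster microRNA gene in CPM on a log axis, with pup 1 in blue and pup 3 in orange. Points are CPM with exact 95% counting intervals, and open triangles mark the 3-count limit of Mir196a-1, which had no count. The Mir10 genes lie between 10196 and 35717 CPM, Mir615 near 528 CPM and the Mir196 genes at or below 17.5 CPM. The Mir196a-1 and Mir196a-2 values leave out reads of miR-196a-5p, which map to both loci.

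The Mir10 genes had lower levels in pup 3 than in pup 1, while Mir615, Mir196b and Mir196a-2 did not pass the test. Differences are given as the log2 fold of pup 3 over pup 1 after TMM scaling and were tested with an exact binomial test of each gene's counts, two-sided, adjusted by Benjamini-Hochberg over the 395 genes that reached 10 counts in one or both libraries. The fold of Mir10a was -0.65 (counting interval -0.67 to -0.64, -log10 of the adjusted p = 1766) and that of Mir10b was -1.09 (interval -1.11 to -1.07, -log10 of the adjusted p = 2459). In linear terms Mir10a was 1.57-fold and Mir10b 2.12-fold lower. Of the 5 members tested, 2 were called lower and none higher, where 21.3% of all genes tested were called lower and 46.8% were called in either direction (25.6% higher). Upper-quartile scaling turned this split, 101 higher and 84 lower, to 51 and 142. The median fold of the 5 was -0.38, against 0.02 over all genes tested. That median is the fold of Mir196b, which rests on 43 and 42 counts and did not pass.

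This test asks only whether 2 libraries differ beyond counting error, and with 46.8% of genes called it is a weak criterion. The typical spread between the pups, a biological coefficient of variation of 16.5% estimated by edgeR over 361 genes, gives an SD of 0.34 for a log2 fold. It was estimated from these same 2 libraries taken as 1 group, with the Mir10 genes among the 361. The spread thus counts the differences between the pups as noise. A test that uses it can pass only genes whose folds stand far out from the rest. Mir10a lay 1.94 and Mir10b 3.22 of these SDs below 0. When that spread was included (edgeR's exactTest with this common dispersion), neither passed: the adjusted p was 0.867 for Mir10a and 0.119 for Mir10b, with unadjusted p of 0.0539 and 0.0015. In that test 2 of 395 genes passed (0.506%), Mir451a and Mir144, which were named after their values were seen, and 23 genes had an unadjusted p below 0.05. Of the 395 genes tested, 12 had a lower fold than Mir10b and 30 had a lower fold than Mir10a, and of the 226 that reached 100 CPM in each pup these were 1 and 9.

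**Figure D3:**
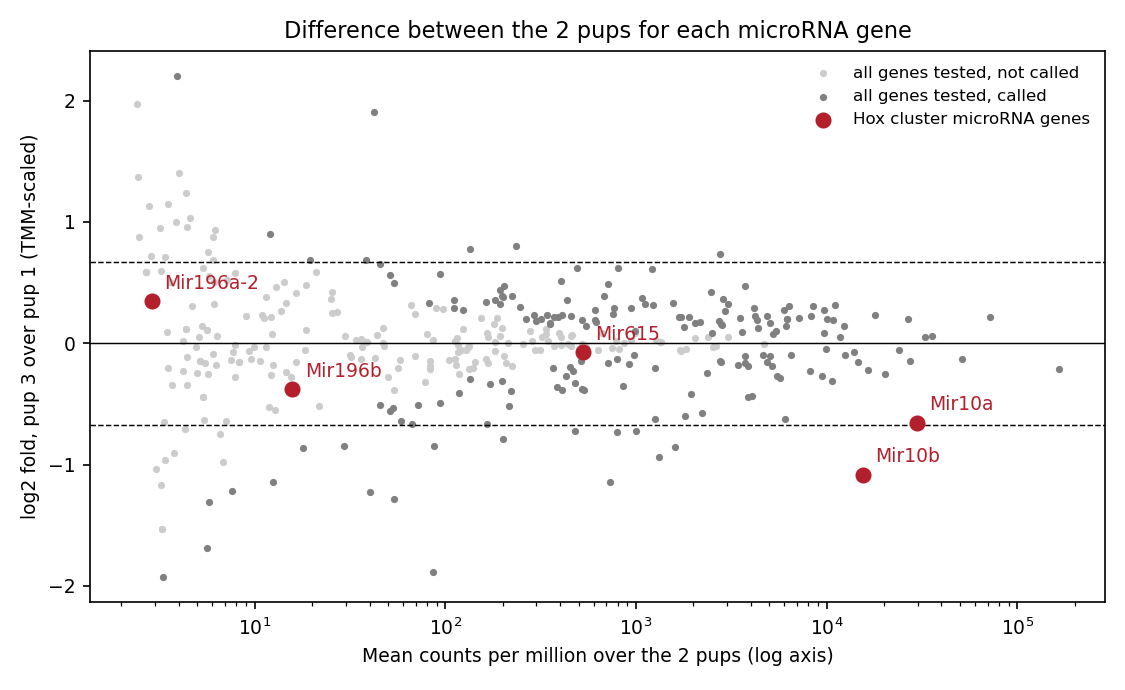
Log2 fold of pup 3 over pup 1 against mean CPM (log axis) for the 395 genes tested, with Hox cluster microRNA genes in red. Dark grey genes passed the exact binomial test, light grey genes did not, and dashed lines mark 2 SDs of the typical spread between pups, 0.67 on either side of 0. Mir10b lies below the lower line, Mir10a just inside it, and Mir615 close to 0.

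The 3 members with low or middle levels gave less certain folds. Mir615 had a fold of -0.07 (counting interval -0.18 to 0.03, exact binomial adjusted p = 0.286), an interval that lies above the folds of both Mir10 genes. With upper-quartile scaling, which lowered the median fold of all genes from 0.02 to -0.13, Mir615 passed the exact binomial test (-0.23, adjusted p = 8.22e-05). Mir196b had a fold of -0.38 (interval -1.03 to 0.27, exact binomial adjusted p = 0.355), which spans no difference and the fold of Mir10a. Mir196a-2 had a fold of 0.35 (interval -1.21 to 2.13, exact binomial adjusted p = 0.911), so that a difference as large as that of Mir10b was not detectable at this depth.

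Judged by counting error alone, the members did not differ between the pups by equal amounts. Of 10 pairs among the 5 members with counts, 3 differed in their fold by Fisher's exact test, two-sided and adjusted over the 10 pairs, and these are the 3 pairs among Mir10a, Mir10b and Mir615. The ratio of Mir10a to Mir10b was 1.71 in pup 1 and 2.31 in pup 3, a difference in log2 fold of 0.43 (counting interval 0.41 to 0.46, Fisher's exact test, adjusted p = 5.76e-254). The fold of Mir10a was below that of Mir615 (difference -0.58, interval -0.69 to -0.47, Fisher's exact test, adjusted p = 4.1e-26), and so was that of Mir10b (-1.01, interval -1.12 to -0.90, Fisher's exact test, adjusted p = 3.55e-75). Library size cancels in these ratios, but the spread between pups is not in the test. For scale, the typical SD of a single log2 fold between the pups was 0.34. A difference between independent folds has a larger SD than a single fold. Pairs of other genes were not tested, so no background share stands beside the 3 of 10. The other 7 pairs each include a Mir196 gene. Mir10b against Mir196b came nearest (-0.71, interval -1.32 to -0.10, Fisher's exact test, adjusted p = 0.0624).

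The genes whose difference between the pups was most like that of the Mir10 genes were found among 223 other genes that reached 100 CPM in each library, by the gap between log2 folds over the 2 pups. For Mir10a these were Mir667 (-0.67), Mir425 (-0.62) and Mir342 (-0.62). For Mir10b they were Mir181b-2 (-1.14), Mir182 (-0.93) and Mir138-1 (-0.85). Mir342 had the highest level of these 6, at 6055 ± 1666 CPM (SD, n = 2), well below Mir10a and Mir10b. With 2 libraries this likeness is a description.

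The relatives of miR-10 outside the Hox clusters are the miR-99/100 and miR-125 families. Of these, miR-99a-5p and miR-100-5p are shown for the difference at the seed.
miR-10a-5p: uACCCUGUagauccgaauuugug
miR-99a-5p: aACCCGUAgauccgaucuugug
miR-100-5p: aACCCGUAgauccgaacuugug
The seed of miR-99a and miR-100 (ACCCGUA) is not that of miR-10, although miR-100-5p shares 11 nt in a row with miR-10a-5p, from its position 6 against position 7 of miR-10a. The miR-125 forms are less alike: miR-125a-5p and miR-125b-5p each share 5 nt in a row with miR-10a-5p. All 6 listed relatives were tested. By the exact binomial test 4 were lower in pup 3, 1 was higher and 1 did not pass, where 46.8% of all genes tested were called and 21.3% were called lower. With the spread between pups included, none of the 6 passed edgeR's exactTest (adjusted p = 1 for each). The relatives had a median fold of -0.15 against 0.02 over all genes tested. Mir99a, the gene with the highest count in both libraries, stood at 174121 and 155604 CPM (log2 fold -0.22, interval -0.22 to -0.21). Mir100 had 28271 and 26436 CPM (-0.15, interval -0.16 to -0.14). The counting intervals of all 6 relatives lay above the folds of Mir10a and Mir10b. The highest fold was that of Mir125b-1 (0.17), whose mature sequence is shared with Mir125b-2 and whose count leaves out reads that map to both.

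Markers of other cell types that a dissected hindbrain can hold did not all move one way between the pups. The list of sensory organ genes (3 of 3 at 10 CPM or more) summed to 2795 and 2034 CPM in pups 1 and 3. Of these, Mir182 was called lower (-0.93), while Mir183 (-0.05) and Mir96 (0.02) did not pass. The choroid plexus list (2 of 3 genes at 10 CPM or more) summed to 5544 and 4528 CPM. Of its genes Mir204 was called lower (-0.43), while Mir211 (-0.52) and Mir448 (0.03) did not pass. The red blood cell pair summed to 151 and 105 CPM, Mir451a being lower in pup 3 and Mir144 higher. The neuronal and oligodendrocyte sums had log2 folds of 0.13 and 0.25. Of the 11 neuronal genes tested, 4 were called higher and 4 lower by the exact binomial test. Of all genes tested, that test called 46.8%, with 25.6% higher and 21.3% lower. Mir126a, the 1 endothelial gene measured, had a log2 fold of 0.06. Of 5 striated muscle genes with a row, Mir206 had 98.4 and 125 CPM and Mir133b had 2.03 and 1.66 CPM. The other 3 had no count, which cannot be read as a low level, since reads of mature forms encoded at several loci are left out of the counts. The part of these cell types in the Mir10 values was not tested, and in whole tissue fewer cells of a type cannot be told apart from less microRNA per cell.

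**Figure D4:**
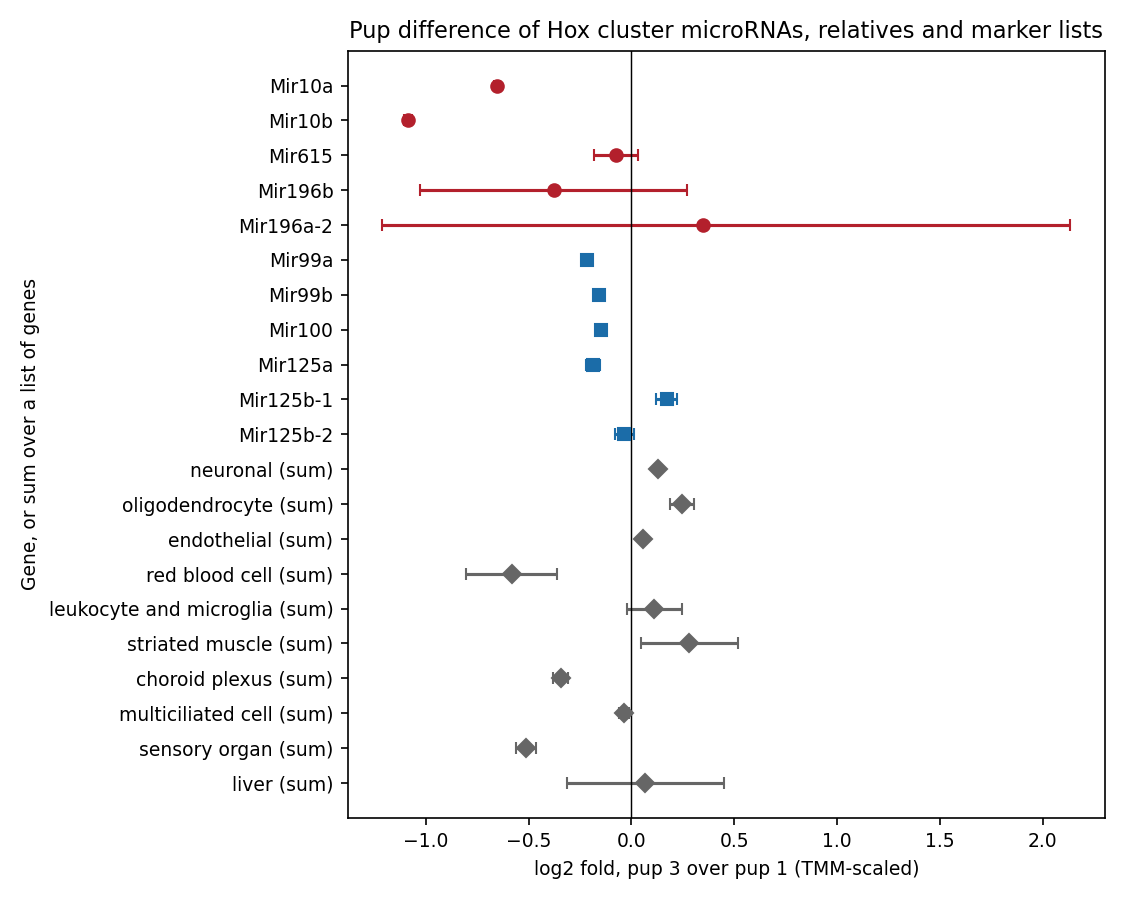
Log2 fold of pup 3 over pup 1 for single Hox cluster microRNA genes (red circles), their relatives outside the clusters (blue squares) and summed marker lists of other cell types (grey diamonds), with 95% counting intervals. Of the points drawn, Mir10b (-1.09) and Mir10a (-0.65) lie lowest, and the interval of Mir196a-2 is the widest. A sum can hide single genes that differ: of the red blood cell pair, Mir451a was at -1.88 and Mir144 at 1.91.

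Sites for these microRNAs in Hox messenger RNAs were located in the reference, since the small RNA data hold no messenger RNA. One 3′ UTR was used per protein-coding gene, and the letters that pair with the seed were searched on the transcript strand. ACTACCT, which pairs with the miR-196 seed, was in 9 of 39 Hox genes (23.1%) and in 6.1% of all 21007 genes, or 0.34 against 0.0455 matches per kb of 3′ UTR. Hoxa7 held 4 matches and Hoxc8 held 2. ACAGGGT, which pairs with the miR-10 seed, was in 10.3% of the Hox genes, against 12.5% of all genes, or 0.105 against 0.0997 per kb. GGCTCGG, which pairs with the seed of miR-615-3p, was in Hoxb4 among the Hox genes and in 2.3% of all genes. None of these 3 motifs contains another. A match is a description and not a measured site.

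The site in Hoxb8 is shown because its pairing to miR-196a-5p reaches over the whole microRNA, with 21 Watson-Crick pairs, 1 G:U pair and no unpaired base of 22, ahead of every other ungapped site in the 39 Hox 3′ UTRs. It lies at chr11:96284888-96284909 (mm10, plus strand), and the Hoxa7 site at chr6:52215210-52215231 (minus strand) is a full seed match. Capitals mark the bases opposite the seed.
Hoxb8 site: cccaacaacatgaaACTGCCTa
Hoxa7 site: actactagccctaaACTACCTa
The G:U pair of the Hoxb8 site falls in the seed, so ACTACCT does not find it. With miR-196b-5p the same Hoxb8 site has 20 Watson-Crick pairs, 1 G:U pair and 1 unpaired base. For miR-10a-5p the seed-matched Hox site with the most pairs was in Hoxd1, the lowest-numbered gene of the cluster that holds Mir10b, with 13 Watson-Crick pairs of 23.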

How the data were processed

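Small RNA libraries of 2 hindbrains (pups 1 and 3) were compared. The authors deposited raw read counts per microRNA gene, on mm10 with GENCODE M4 according to the deposited listings. The aligner, its mismatch allowance and the trimming were not given in the sources used here. The tables have 3 count columns, whose meaning (either, same and opposite strand) was inferred from the values, and 4 rows that name no gene, which were left out of totals (57.7% of reads in pup 1 and 58.0% in pup 3). Same-strand counts were used. Symbols came from GENCODE M21 (1894 of 1973 rows matched). CPM are over plain totals, folds use TMM totals (edgeR 4.0.16, R 4.3.3) and a prior of 0.5 counts; the quasi-likelihood test has no residual degrees of freedom here, so exact binomial and Fisher tests (scipy 1.17.1) at an adjusted 0.05 stand in. DESeq2 1.42.0 size factors were an alternative. The scripts were checked on simulated data that held counting error only, without the spread between pups. The pups are 2 animals under 1 donor identifier. Members and lists were chosen with earlier results of these data known. Named genes are the 6 members, the genes next to 4 of them in mean CPM, the 3 nearest in fold to each Mir10 gene, and the relatives of miR-10. Each 3′ UTR is the longest of a gene's complete coding transcripts in M21.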

Additional observations from a re-analysis of the deposited data

How the results depend on the processing

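The folds of Mir10a and Mir10b kept their sign under every alternative run, from -0.81 to -0.60 and from -1.24 to -1.03 across scalings and strand columns. With edgeR's exactTest the folds were -0.65 and -1.09 but no longer passed (adjusted p = 0.867 and 0.119), and 2 genes were called in place of 185. That test adds the spread between pups, which was estimated from these same 2 libraries. Upper-quartile scaling shifted the median fold of all genes from 0.02 to -0.13, turned the split of calls from 101 higher and 84 lower to 51 and 142, and brought Mir615 past the threshold (-0.23, exact binomial adjusted p = 8.22e-05). Plain totals gave 115 higher and 76 lower. Taken over all reads of the library, the Hox share was 1.93%, Mir10a 12499 CPM and Mir10b 6553 CPM, since the denominator then holds multimapped and unmapped reads. Leaving out either pup, the share ranged from 3.43% to 5.71%. Mir196a-2, with at most 10 counts, and Mir196a-1, with none, are limited by depth and by shared sequence. No paired analysis was possible because there is 1 group.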
